A study of Homo sapiens with 12 samples.

Results

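The AP-1 subunits and their immediate early companions were followed through doxorubicin exposure: the Fos genes FOS, FOSB, FOSL1 and FOSL2, the Jun genes JUN, JUNB and JUND, and EGR1, IER3 and MAFF. These 10 genes were chosen by symbol, and each matched 1 of the 60607 rows of the count table. Of the 10, 9 passed the filter on low counts and were tested among 17320 genes. IER3 did not pass.

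Messenger RNA was sequenced from AC16, a human cell line derived by fusion of adult ventricular heart cells and virus-transformed fibroblasts. All 12 libraries came from wild-type AC16 cells kept in DMEM/F12 medium with serum and antibiotics, 3 libraries in each of 4 groups. The control cells had medium alone, and the other groups had 0.1 µM doxorubicin, an anthracycline that poisons topoisomerase II, for 2, 4 or 6 days. The design addressed the heart muscle damage that the drug causes. In the titles the exposures are 48, 96 and 112 hours, which makes the longest 112 hours where the design has 6 days. Each title also names day 6, and the labels do not say whether every exposure ended at harvest, so the 3 exposures are treated as separate groups. Whether the replicate libraries stem from separate cultures is not stated, so p-values here measure only the spread from library to library, possibly technical.

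AP-1 is a dimer of basic leucine zipper proteins. A Jun protein pairs with another Jun protein or with a Fos protein, and Fos proteins need a Jun partner to bind DNA well. Dimers bind the sequence TGACTCA, known as the TPA response element (TRE), and with some partners the related cyclic AMP response element (CRE), TGACGTCA. FOS, FOSB and EGR1 are immediate early genes. Growth factors and stress switch them on within minutes through MAP kinases acting on serum response factor (SRF) at CArG boxes and on CREB at CREs, and their mRNAs are short-lived. FOSL1 and FOSL2 lack the strong transactivation domain of FOS and FOSB and usually stay on for longer. In heart muscle cells these genes are known for their early induction by growth stimuli and mechanical load.

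The promoter sequences of FOS, FOSB and EGR1 show response elements within the printed stretches alone. These genes are the members whose levels differed from the control by the greatest factors. Sequence farther upstream was not searched, so a CArG box of FOS or FOSB lying there would be missed. The sequences come from RefSeq (GRCh38.p14), on the plus strand, 5′ to 3′, and end before the annotated gene start. The FOS sequence covers chr14:75278578-75278773, the FOSB sequence chr19:45467746-45467994 and the EGR1 sequence chr5:138465229-138465478. Capitals mark the CRE core TGACGT on either strand (read as ACGTCA on the other strand) and, in EGR1, the CArG boxes.
FOS: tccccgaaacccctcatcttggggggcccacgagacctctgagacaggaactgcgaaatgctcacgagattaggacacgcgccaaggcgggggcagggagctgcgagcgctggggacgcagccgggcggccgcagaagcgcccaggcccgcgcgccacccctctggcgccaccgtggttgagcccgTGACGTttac
FOSB: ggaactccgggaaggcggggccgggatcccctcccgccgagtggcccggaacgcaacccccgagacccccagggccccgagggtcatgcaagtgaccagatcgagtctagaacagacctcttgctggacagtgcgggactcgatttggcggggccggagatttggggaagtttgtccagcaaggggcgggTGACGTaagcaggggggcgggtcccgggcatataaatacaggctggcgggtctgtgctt
EGR1: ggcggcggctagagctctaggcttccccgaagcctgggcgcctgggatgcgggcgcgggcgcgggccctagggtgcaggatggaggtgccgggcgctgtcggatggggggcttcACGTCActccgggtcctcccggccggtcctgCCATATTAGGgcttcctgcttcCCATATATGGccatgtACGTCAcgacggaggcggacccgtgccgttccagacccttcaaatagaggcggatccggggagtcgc
The CRE core began at -64 in FOS and at -60 in FOSB, counted from the RefSeq start. EGR1 held it at -136 and -67, with the CArG boxes CCATATTAGG at -105 and CCATATATGG at -83 between them.

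RefSeq promoter windows, from 250 bases before to 50 after the start, were found for 8 of the 10 members, 9 windows in all, and not for FOSL1 or IER3. The CRE core was in 6 of these 9 windows (FOS, FOSB, FOSL2, JUND, EGR1 and MAFF), against 7.98% of all 35116 windows. The full CRE, TGACGTCA, which contains the core, was in the JUND and MAFF windows and in 1.85% of all windows. A TRE, TGACTCA, was in the FOSL2 window and in 4.95% of all windows. The variant TGACATCA was in the JUN window and in 2.61% of all windows. The CArG box was in the EGR1 window and in 1.29% of all windows. The EGR site (GCGTGGGCG or GCGGGGGCG) was in 0 of the 9 windows and in 5.77% of all windows. Both strands were searched, and a match describes the letters only. Sequence outside the windows was not searched, so a window without a motif does not show that the gene lacks it. Of the members with the CRE core, FOS, FOSB, JUND and EGR1 fell at 2, 4 and 6 days and MAFF at 6 days alone. FOSL2, which also has the core, passed the test against the control at 2 days alone, where it rose. Of JUN and JUNB, whose windows lack the core, JUN fell at 2, 4 and 6 days and JUNB at 4 and 6 days. The part of the core in these differences was not tested.

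Library totals were 14835743 to 21226441 counts, and the tested members had 171 to 11630 counts per library. AC16 cells are labelled as cardiomyocytes, but of 10 cardiomyocyte markers 1 passed the filter, MYL2 had 0 counts in all 12 libraries, and MYH7 and TNNT2 had 8 and 17 counts over all libraries. The summed level of 10 fibroblast markers was 6006 to 6319 CPM in the controls, 9143 to 9381 at 2 days, 5586 to 6233 at 4 days and 4791 to 5260 at 6 days. COL1A1 and COL1A2 averaged 2582 and 1821 CPM in the controls, so the sum mainly follows them. At 4 days 3 of the 10 markers were higher than in the control and 5 lower, where 18.8% of all tested genes were higher and 17.7% lower. Mitochondrially encoded mRNAs made up 4.37% to 6.12% of counts in the controls, 4.22% to 6.00% at 2 days, 6.34% to 6.44% at 4 days and 4.24% to 5.14% at 6 days. Among the 9 tested members, control library 2, with the highest mitochondrial share of its group, was the highest control for 8. Levels are given in CPM, read counts scaled to a common library size, after TMM scaling. A gene is said to rise or fall where its p in edgeR's quasi-likelihood test, adjusted by Benjamini-Hochberg across the tested genes, was under 0.05. In bulk RNA, fewer cells of a type and less RNA per cell cannot be told apart. The comparisons with the control share the same 3 control libraries.

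Most members were lower after doxorubicin at every exposure. At 2 days, 5 of the 9 tested members fell and 1 rose, where 23.4% of all tested genes fell and 23.8% rose. At 4 days 6 fell and 1 rose (17.7% and 18.8% of all tested genes). At 6 days 7 fell and 0 rose (21.7% and 22.0% of all tested genes); 0 rose with DESeq2 too, but 1, FOSL2, rose with library totals alone (0.22, adjusted p = 0.0270) and was higher at an unadjusted p under 0.05 in edgeR. The median log2 fold change of the tested members was -0.31, -0.83 and -0.86 at 2, 4 and 6 days, against -0.01, -0.003 and -0.006 over all tested genes. All 9 differed somewhere among the 4 groups, as did 63.4% of all tested genes.

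**Figure D1:**
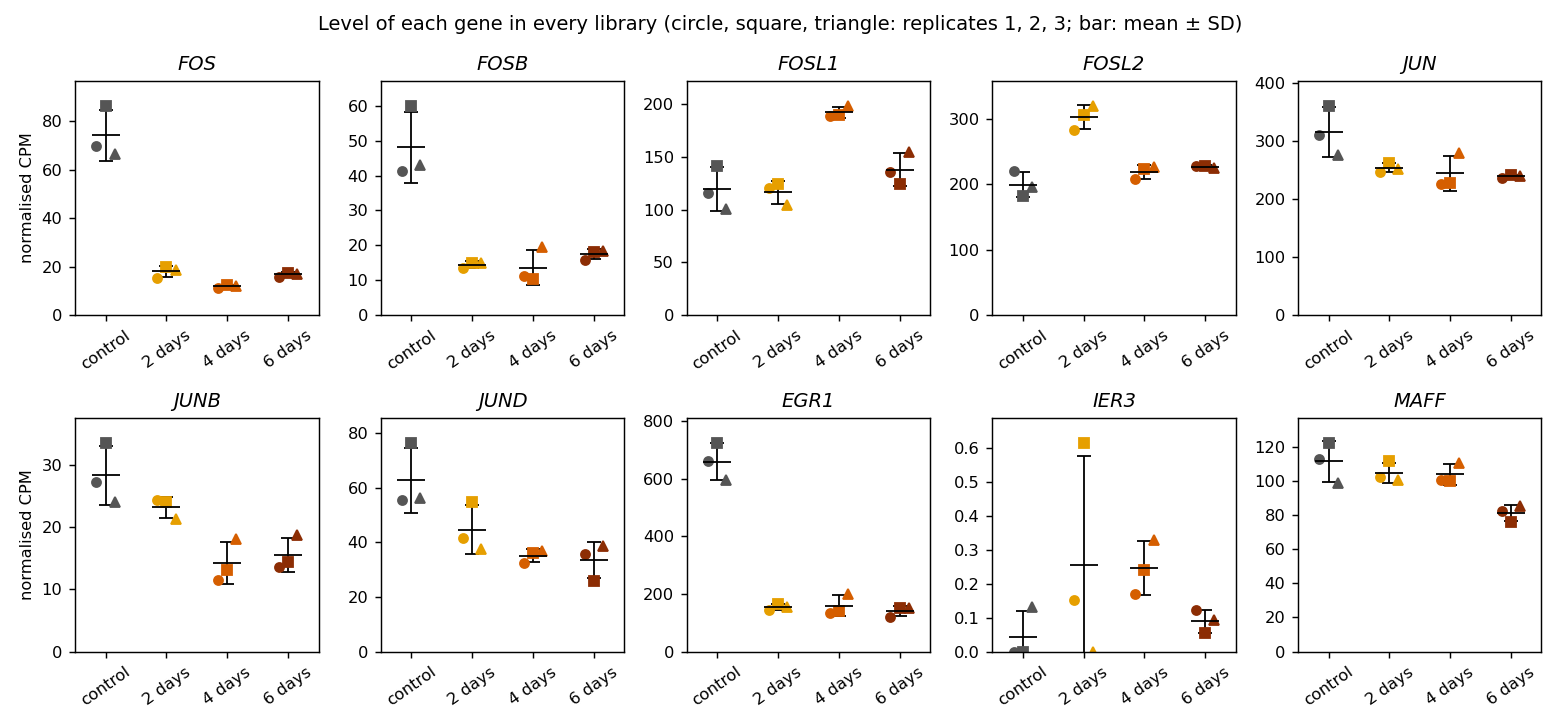
Normalised CPM (vertical axis, linear, from 0) of each gene in every library by group; circles, squares and triangles are replicates 1, 2 and 3, and bars are the mean ± SD of 3 libraries. FOS, FOSB and EGR1 stand higher in all 3 control libraries than in any doxorubicin library, FOSL2 peaks at 2 days and FOSL1 at 4 days, and IER3 reaches 0.616 CPM at most.

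FOS, the classical partner of JUN, fell to a fraction of its control level at every exposure. The gene lies at chr14:75278774-75282230 (GRCh38, plus strand, ENSG00000170345.10). The control libraries had 69.9, 86.3 and 66.5 CPM. Levels were 15.3, 19.9 and 18.7 CPM at 2 days, 11.2, 12.4 and 12.0 CPM at 4 days and 15.8, 17.4 and 17.0 CPM at 6 days. Every doxorubicin library was well below every control library, and the 4-day libraries lay below those of both other exposures. The log2 fold change against the control was -2.05 ± 0.11 (SE) at 2 days (4.15-fold lower, adjusted p = 1.61e-13), -2.65 ± 0.12 at 4 days (6.27-fold lower, adjusted p = 5.15e-15) and -2.14 ± 0.11 at 6 days (4.42-fold lower, adjusted p = 7.22e-14). In the order control, 2 days, 6 days, 4 days, the neighbours 2 and 6 days did not differ beyond their spread (adjusted p = 0.565). FOS was 0.50 ± 0.12 higher in log2 at 6 than at 4 days (adjusted p = 0.0122), and this call was lost without the 4-day library 1 (0.46, adjusted p = 0.0721) or the 6-day library 2 (0.48, adjusted p = 0.0566).

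FOSB, a Fos protein with a strong transactivation domain like FOS, fell at all 3 exposures too. It lies at chr19:45467995-45475179 (plus strand, ENSG00000125740.14). Its control levels were 41.3, 59.95 and 42.9 CPM. They were 13.4, 14.9 and 15.01 CPM at 2 days, 11.2, 10.3 and 19.4 CPM at 4 days and 15.9, 18.0 and 18.4 CPM at 6 days. No doxorubicin library reached the lowest control, and the 4-day library 3 stood above the other 2 of its group. The log2 fold changes were -1.74 ± 0.20 (adjusted p = 2.67e-06), -1.81 ± 0.20 (adjusted p = 2.85e-06) and -1.46 ± 0.19 (adjusted p = 1.58e-05) at 2, 4 and 6 days. The exposures did not differ from each other beyond their spread (adjusted p = 0.817 for 4 against 2 days, 0.342 for 6 against 4 days and 0.291 for 6 against 2 days). Without the 4-day library 3, FOSB was lower at 4 than at 2 days (-0.42, adjusted p = 0.0445) and higher at 6 than at 4 days (0.70, adjusted p = 0.00922).

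FOSL1, which encodes FRA1, rose at 4 days and in no other comparison with the control. It lies at chr11:65892049-65900573 (minus strand, ENSG00000175592.9). The controls had 116.0, 141.6 and 100.8 CPM and the 2-day libraries 120.7, 124.3 and 104.0 CPM. The 4-day libraries had 189.1, 189.7 and 198.1 CPM and the 6-day libraries 135.3, 124.0 and 154.5 CPM. The 4-day libraries stood above all 9 others, while the other 3 groups overlapped. The log2 fold change at 4 days was 0.69 ± 0.10 (1.61-fold higher, adjusted p = 1.05e-05). It was -0.04 ± 0.10 at 2 days (adjusted p = 0.784) and 0.21 ± 0.10 at 6 days (adjusted p = 0.107). Without control library 2 the 6-day difference passed the test (0.35, adjusted p = 0.00248). The level at 4 days was above that at 2 days by 0.73 ± 0.10 (adjusted p = 5.65e-06), and the level at 6 days was below that at 4 days (-0.48 ± 0.10, adjusted p = 0.00511). FOSL1 at 6 against 2 days was at 0.25 ± 0.10 (adjusted p = 0.0565), and passed without the 6-day library 2 (0.32, adjusted p = 0.0300). Mitochondrially encoded mRNAs also took their highest share at 4 days, with 5 of 13 higher than in the control and 0 lower. Of all tested genes 18.8% were higher and 17.7% lower at 4 days. The part of the mitochondrially encoded mRNAs in the FOSL1 result was not tested.

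FOSL2, which encodes FRA2, rose at 2 days. It lies at chr2:28392448-28417312 (plus strand, ENSG00000075426.12). The controls had 219.8, 181.8 and 196.3 CPM and the 2-day libraries 282.5, 306.3 and 319.6 CPM. The 4-day libraries had 207.3, 223.4 and 226.9 CPM and the 6-day libraries 227.6, 228.5 and 224.4 CPM. The 2-day libraries were above all 9 others. The 6-day libraries were close together and just above the highest control. The log2 fold change was 0.60 ± 0.079 at 2 days (1.52-fold higher, adjusted p = 8.09e-07), 0.14 ± 0.079 at 4 days (adjusted p = 0.188) and 0.19 ± 0.079 at 6 days (adjusted p = 0.0594). The 6-day difference passed the test without control library 1 (0.26, adjusted p = 0.0167). FOSL2 was lower at 4 than at 2 days (-0.47 ± 0.079, adjusted p = 5e-05) and lower at 6 than at 2 days (-0.42 ± 0.079, adjusted p = 0.000142), and 4 and 6 days did not differ beyond their spread (adjusted p = 0.777). Fibroblast markers moved with FOSL2 at 2 days, when 7 of 10 were higher and 1 lower than in the control. Of all tested genes 23.8% were higher and 23.4% lower at 2 days. Of 6 epithelial markers 3 were higher and 1 lower at 2 days, with a summed level of 253.8 to 278.9 CPM against 94.9 to 127.7 CPM in the controls. No fibroblast or epithelial marker was at 0 in every library, and their part in the FOSL2 result was not tested.

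The mix of Fos family transcripts differed between exposures when levels were set per kilobase of exon. FOS and FOSB together made up 25.7% ± 1.62 (SD, n = 3) of the family's summed CPM per kilobase in the controls, 7.26% ± 0.731 at 2 days, 4.40% ± 0.521 at 4 days and 7.38% ± 0.648 at 6 days. FOSL1 was the largest share in every group, at 51.4% ± 2.79, 54.9% ± 3.61, 73.5% ± 0.790 and 64.5% ± 2.69 in the same order. The share of FOSL2 was 22.96% ± 3.94, 37.8% ± 3.02, 22.1% ± 0.605 and 28.1% ± 2.19. The family's summed level was 122.7 ± 14.4 CPM per kilobase in the controls, 112.1 ± 4.80 at 2 days, 138.6 ± 4.73 at 4 days and 113.1 ± 7.93 at 6 days. The sum thus varied much less between groups than FOS or FOSB did. Shares and sums over members carry no test. The lengths are the merged exons of all annotated transcripts (3238 bases for FOS, 5553 for FOSB, 1887 for FOSL1 and 7157 for FOSL2). Shares and sums depend on this choice, as the transcripts present in these cells may be shorter.

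**Figure D2:**
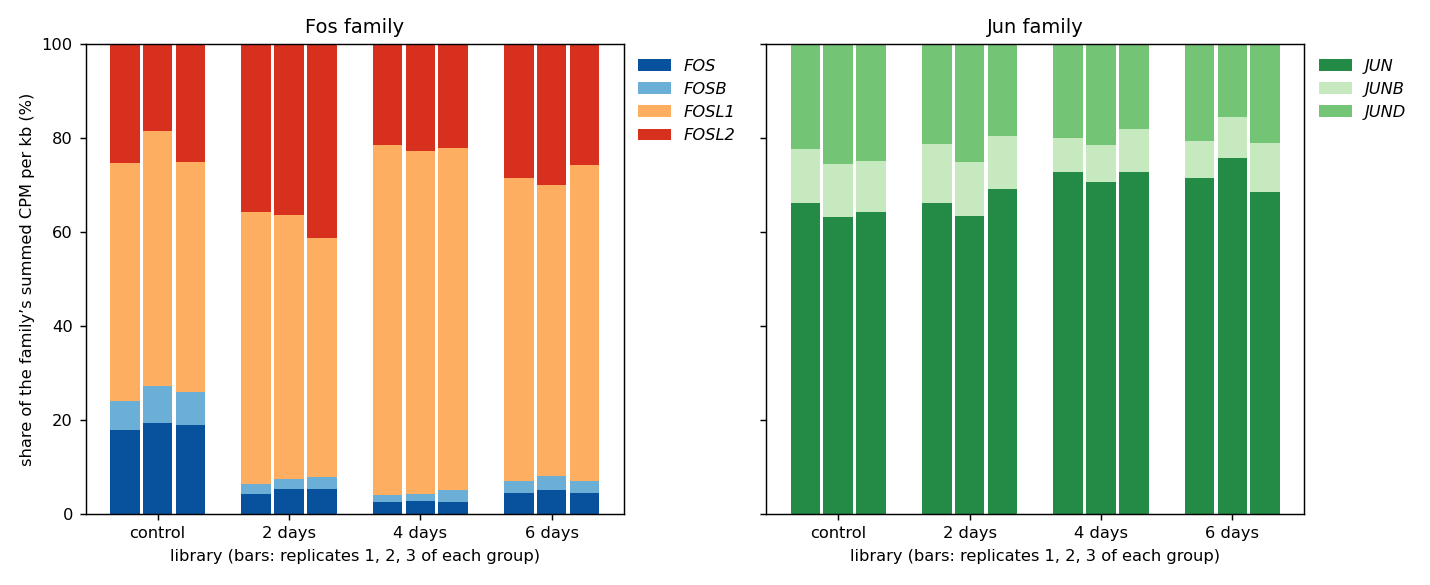
Share of each gene in its family's summed CPM per kilobase of exon (vertical axis, percent), 1 stacked bar per library, replicates 1 to 3 of each group side by side, Fos family on the left and Jun family on the right. FOS and FOSB fill about 25.7% of the control bars and at most 8.13% of any doxorubicin bar, and JUN is the largest part of every Jun bar.

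JUN, the main Jun protein and a target of the JNK kinases, was modestly lower at every exposure. The gene has a single exon at chr1:58780788-58784327 (minus strand, ENSG00000177606.8). The controls had 310.1, 359.9 and 275.5 CPM, and the 2-day libraries 246.4, 261.5 and 252.3 CPM. The 4-day libraries had 225.2, 227.2 and 278.9 CPM and the 6-day libraries 236.6, 241.4 and 239.7 CPM. All were below the lowest control except the 4-day library 3, which overlapped it. The log2 fold changes were -0.31 ± 0.091 (adjusted p = 0.00635), -0.37 ± 0.091 (adjusted p = 0.00241) and -0.40 ± 0.091 (adjusted p = 0.001) at 2, 4 and 6 days. The exposures did not differ from each other beyond their spread (adjusted p = 0.681 for 4 against 2 days and 0.903 for 6 against 4 days). With control library 2 and the 2-day library 3 both left out, the 2-day call was lost (-0.21, adjusted p = 0.0616).

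JUNB, a Jun protein that can oppose JUN at some promoters, fell at 4 and 6 days. It is a single-exon gene at chr19:12791496-12793315 (plus strand, ENSG00000171223.6). The controls had 27.25, 33.56 and 24.11 CPM, and the 2-day libraries 24.29, 24.10 and 21.26 CPM. The 4-day libraries had 11.59, 13.08 and 18.12 CPM and the 6-day libraries 13.53, 14.39 and 18.71 CPM. At 2 days the libraries overlapped the controls, and at 4 and 6 days they lay below all control and 2-day libraries. The log2 fold changes were -0.29 ± 0.15 at 2 days (adjusted p = 0.12), -0.99 ± 0.15 at 4 days (1.98-fold lower, adjusted p = 2.38e-05) and -0.86 ± 0.15 at 6 days (1.81-fold lower, adjusted p = 8.02e-05). Against 2 days, JUNB was lower at 4 days (-0.70 ± 0.15, adjusted p = 0.0011) and at 6 days (-0.57 ± 0.15, adjusted p = 0.00426), and 4 and 6 days did not differ beyond their spread (adjusted p = 0.700). JUNB shares 259 exon bases with HOOK2 on the opposite strand, which had 118 to 286 counts per library where JUNB had 205 to 511. Which strand setting was used for counting is not given in the sources used here, and reads of these 2 genes may be mixed in that stretch.

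JUND, the Jun gene usually expressed in resting cells, fell at all 3 exposures. It lies at chr19:18279760-18281622 (minus strand, ENSG00000130522.6). The controls had 55.29, 76.37 and 56.28 CPM, and the 2-day libraries 41.63, 54.56 and 37.71 CPM. The 4-day libraries had 32.58, 36.24 and 36.62 CPM and the 6-day libraries 35.83, 25.94 and 38.76 CPM. Every doxorubicin library was below every control, though the 2-day library 2 came within 1 CPM of the lowest control. The log2 fold changes were -0.49 ± 0.16 (adjusted p = 0.0179), -0.83 ± 0.16 (adjusted p = 0.000642) and -0.90 ± 0.16 (adjusted p = 0.000247) at 2, 4 and 6 days. The 2-day call was lost without control library 2 (-0.33, adjusted p = 0.0746), the 2-day library 1 (-0.43, adjusted p = 0.0712) or the 2-day library 3 (-0.38, adjusted p = 0.0600), and with control 2 and 2-day library 3 both left out it was -0.22 (adjusted p = 0.215). The steps from 2 to 4 days (adjusted p = 0.117) and from 4 to 6 days (adjusted p = 0.865) did not pass the test. JUND at 6 against 2 days was at -0.41 ± 0.16 (adjusted p = 0.0521) and passed with DESeq2 (adjusted p = 0.0206). Without the 2-day library 3, JUND was lower than at 2 days both at 4 days (-0.45, adjusted p = 0.0402) and at 6 days (-0.52, adjusted p = 0.0150), and without the 6-day library 3 it was lower at 6 than at 2 days (-0.53, adjusted p = 0.0248).

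Within the Jun family, JUN made up 64.5% of the summed CPM per kilobase in the controls and 66.2%, 72.0% and 71.9% at 2, 4 and 6 days. The share of JUNB was 11.2%, 11.8%, 8.13% and 9.05% and that of JUND 24.3%, 22.0%, 19.9% and 19.0% in the same order. The summed level of the family was 138.2 ± 20.6 CPM per kilobase (SD, n = 3) in the controls, 108.3 ± 7.10 at 2 days, 95.6 ± 11.2 at 4 days and 94.1 ± 4.42 at 6 days. All 9 doxorubicin libraries had a lower Jun sum than the lowest control library, at 121.3 CPM per kilobase.

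**Figure D3:**
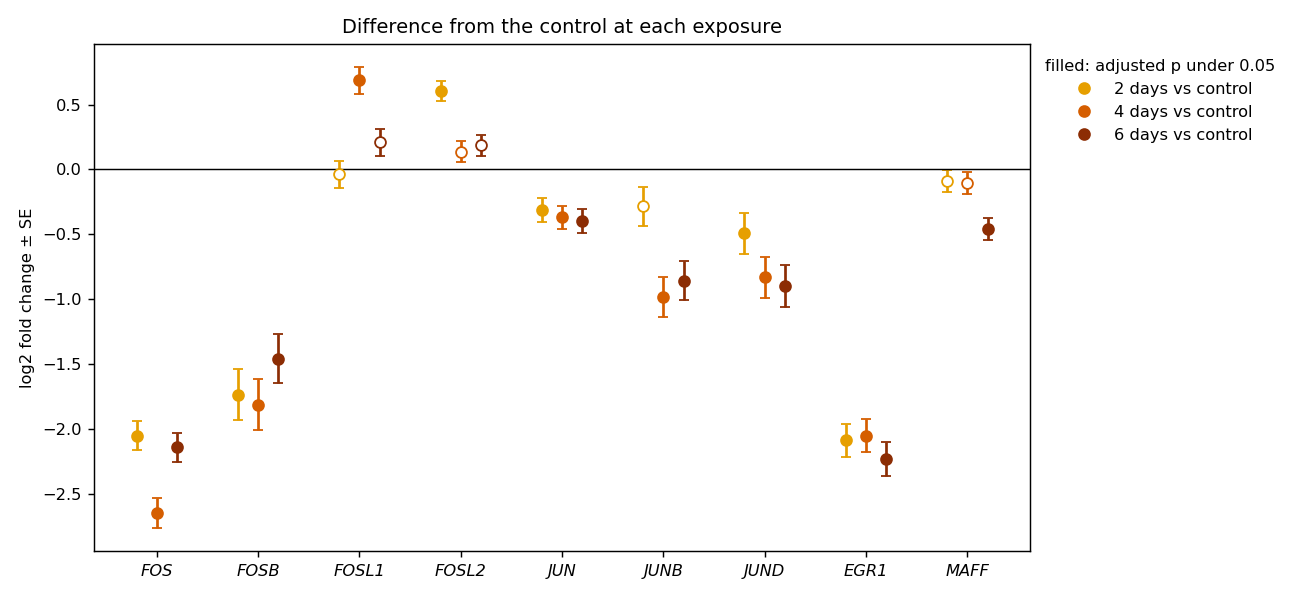
Log2 fold change ± SE (vertical axis, 0 is no difference) of the 9 tested genes at 2, 4 and 6 days against the same 3 control libraries; filled points passed an adjusted p of 0.05 and open points did not. FOS, FOSB and EGR1 lie between -1.46 and -2.65, the 3 Jun genes between -0.29 and -0.99, and only FOSL1 at 4 days and FOSL2 at 2 days are filled above 0.

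EGR1, a zinc finger transcription factor induced through SRF, fell more than 4-fold at every exposure. It lies at chr5:138465490-138469315 (plus strand, ENSG00000120738.8). The controls had 660.2, 724.8 and 594.4 CPM. The 2-day libraries had 145.6, 164.3 and 155.3 CPM, the 4-day libraries 134.4, 142.2 and 200.6 CPM and the 6-day libraries 120.2, 151.2 and 150.1 CPM. Every doxorubicin library was far below the controls, and the 4-day library 3 was the highest of the treated libraries. The log2 fold changes were -2.09 ± 0.13 (4.26-fold lower, adjusted p = 2.36e-10), -2.05 ± 0.13 (4.15-fold lower, adjusted p = 5.12e-10) and -2.23 ± 0.13 (4.69-fold lower, adjusted p = 1.12e-10) at 2, 4 and 6 days. The exposures did not differ from each other beyond their spread (adjusted p = 0.853 for 4 against 2 days, 0.460 for 6 against 4 days and 0.398 for 6 against 2 days). Per kilobase of exon EGR1 had the highest control level of the 9 tested members, at 210.3 CPM per kilobase, followed by JUN at 89.0 and FOSL1 at 63.3. At 4 days FOSL1 was the highest at 101.9 CPM per kilobase, above JUN at 68.9 and EGR1 at 50.7.

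MAFF, a small Maf protein without a transactivation domain, fell at 6 days alone. It lies at chr22:38200767-38216511 (plus strand, ENSG00000185022.12). The controls had 113.1, 122.3 and 98.82 CPM, the 2-day libraries 102.2, 111.4 and 100.7 CPM and the 4-day libraries 100.4, 100.2 and 110.7 CPM. The 6-day libraries had 82.25, 75.81 and 85.02 CPM, below all 9 others. The log2 fold change was -0.46 ± 0.086 at 6 days (1.38-fold lower, adjusted p = 0.000112), after -0.09 ± 0.086 at 2 days (adjusted p = 0.407) and -0.10 at 4 days (adjusted p = 0.377). MAFF was lower at 6 than at 2 days (-0.37 ± 0.086, adjusted p = 0.00116). The fall from 4 to 6 days (-0.36 ± 0.086, adjusted p = 0.0120) was lost without the 4-day library 3 (-0.31, adjusted p = 0.0698) or the 6-day library 2 (-0.31, adjusted p = 0.0845).

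IER3, an immediate early gene whose product modulates survival signalling, had very few counts. It lies at chr6:30743199-30744554 (minus strand, ENSG00000137331.12). Its counts were 0, 0 and 2 in the controls, 3, 9 and 0 at 2 days, 3, 4 and 6 at 4 days and 2, 1 and 2 at 6 days. The highest level was 0.616 CPM, where 3 counts, the limit that a count of 0 allows, equal 0.139 to 0.205 CPM in a library, for counting error only. A difference between groups was not detectable with so few counts, and with no filter the adjusted p for IER3 was 0.154, 0.180 and 0.672 at 2, 4 and 6 days against the control. Its antisense neighbour IER3-AS1, which shares 359 exon bases with it, had 0 to 2 counts per library. How reads that map to more than 1 place were handled, and whether alternate copies of this region were in the alignment index, is not given in the sources used here. The counts therefore do not show that IER3 was barely expressed.

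Between the exposures themselves, 3 members fell and 1 rose from 2 to 4 days, where 18.5% of all tested genes were lower and 16.3% higher. From 4 to 6 days 2 members fell and 1 rose, against 3.73% and 3.05% of all tested genes. At 6 against 2 days 3 members were lower and 0 higher, against 23.0% and 19.8% of all tested genes. There, 0 were higher with DESeq2 too, but 1, FOSL1, was higher with library totals alone (0.41, adjusted p = 0.00244) and at an unadjusted p under 0.05 in edgeR. FOS and FOSL1 changed in opposite directions in both steps: FOS was lowest and FOSL1 highest at 4 days. Across the 12 libraries the log2 CPM of FOS correlated with that of EGR1 (Pearson r = 0.955) and FOSB (r = 0.947) and was negatively correlated with that of FOSL1 (r = -0.541) and FOSL2 (r = -0.435). These are descriptions over 12 libraries that share 4 group means, and they carry no test.

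Other genes of the pathway were counted in lists that were chosen by function. Among 11 basic leucine zipper partners of AP-1, 9 were tested. Of these 3 rose and 2 fell at 2 days, 0 rose and 3 fell at 4 days, and 1 rose and 3 fell at 6 days (the count of risers at 4 days was also 0 at an unadjusted p under 0.05 in edgeR). The counts were 33.3% and 22.2%, 0% and 33.3%, and 11.1% and 33.3% of the tested list genes. Over all tested genes the shares were 23.8% and 23.4%, 18.8% and 17.7%, and 22.0% and 21.7% in the same order. ATF3, a stress-induced partner of Jun proteins, had 94.6 ± 8.58 CPM in the controls, 204.6 ± 1.49 at 2 days, 60.1 ± 1.46 at 4 days and 57.9 ± 1.78 at 6 days (SD, n = 3). It thus rose at 2 days (log2 fold change 1.11 ± 0.078, adjusted p = 1.62e-11) and was below the control at 6 days (-0.71 ± 0.079, adjusted p = 7.07e-08). JDP2, which dimerises with JUN and represses AP-1 sites, fell from 34.7 ± 4.77 CPM to 15.2 ± 1.36, 10.5 ± 0.710 and 12.4 ± 1.76 CPM, and its log2 fold change at 6 days was -1.48 ± 0.12 (adjusted p = 4.71e-10). MAFK, another small Maf gene, rose at 2 days (0.69 ± 0.12, adjusted p = 4.18e-05) and fell at 6 days (-0.43 ± 0.13, adjusted p = 0.00724), a call that was lost without the 6-day library 2 (-0.33, adjusted p = 0.0565). ATF7 was 0.23 ± 0.090 higher at 6 days (adjusted p = 0.0431), and this was lost without any of 5 of the 6 libraries compared (adjusted p of 0.0610 without control 1, 0.118 without control 2, 0.0749 without control 3, 0.134 without 6-day library 2 and 0.104 without 6-day library 3).

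The other immediate early genes were split at 2 days and mostly lower later. Of 28 listed genes 26 were tested. At 2 days 10 rose and 9 fell, at 4 days 3 rose and 19 fell, and at 6 days 3 rose and 17 fell, with medians of 0.26, -0.78 and -0.87. The counts were 38.5% and 34.6%, 11.5% and 73.1%, and 11.5% and 65.4% of the tested list genes. Over all tested genes the shares were 23.8% and 23.4%, 18.8% and 17.7%, and 22.0% and 21.7% in the same order. From 2 to 4 days 2 genes of the list rose and 21 fell (16.3% and 18.5% of all tested genes). CCN2, which encodes a secreted matrix-associated growth factor, declined with each exposure, from 1155 ± 71.0 CPM in the controls to 740.5 ± 70.1, 303.9 ± 39.5 and 175.6 ± 3.41 CPM (log2 fold change at 6 days -2.72 ± 0.094, adjusted p = 3.3e-17). The nuclear receptor gene NR4A1 fell from 12.7 ± 1.06 CPM to 5.89 ± 0.775, 3.66 ± 0.690 and 4.53 ± 0.337 CPM (-1.48 ± 0.155 at 6 days, adjusted p = 2.48e-08). PHLDA1 rose at each exposure, from 162.6 ± 29.1 CPM to 243.3 ± 9.60, 328.3 ± 16.9 and 450.4 ± 25.4 CPM (1.47 ± 0.095 at 6 days, adjusted p = 4.37e-12). BTG2, an antiproliferative gene that is also a p53 target, had 3.34 ± 0.12 more on the log2 scale at 6 days (adjusted p = 1.17e-16). It was highest at 2 days, with 5.41 ± 1.32 CPM in the controls and 116.1 ± 7.68, 44.8 ± 2.16 and 55.1 ± 3.07 CPM at 2, 4 and 6 days.

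**Figure D4:**
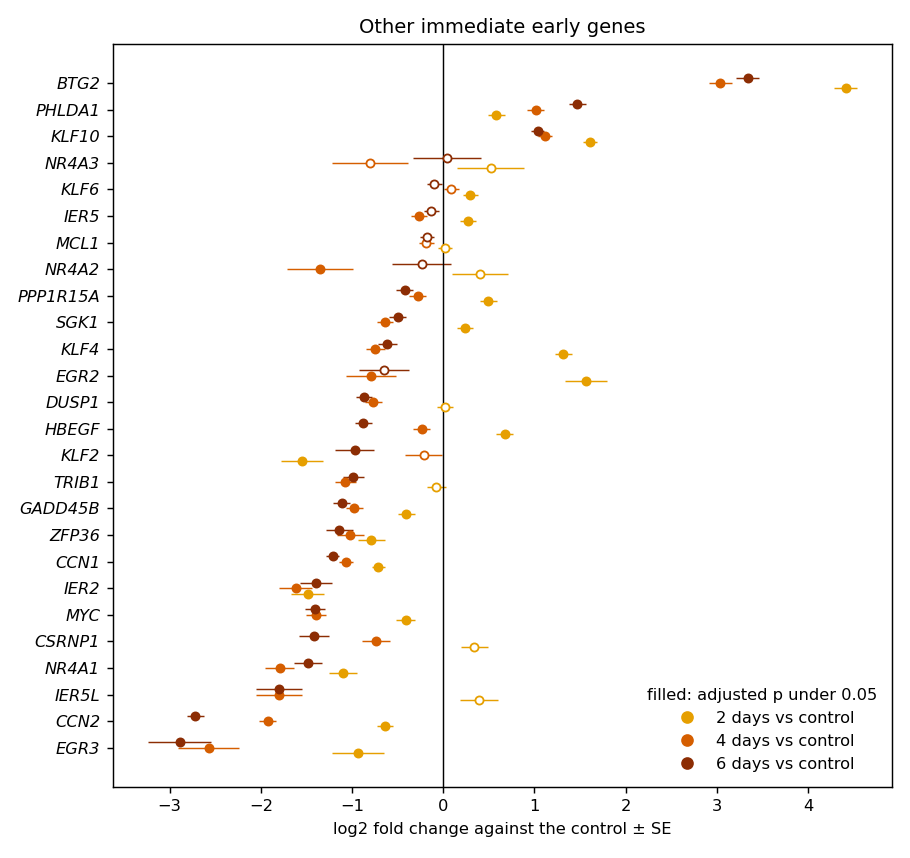
Log2 fold change ± SE (horizontal axis) against the control for the 26 tested genes of the list of other immediate early genes, ordered by the value at 6 days; filled points passed an adjusted p of 0.05. At 6 days 17 filled points lie left of 0 and 3 right of it (PHLDA1, BTG2 and KLF10), while at 2 days 9 lie left and 10 right.

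The kinases and SRF cofactors that act upstream of FOS and EGR1 moved in both directions. All 25 listed were tested, and 9 rose and 9 fell at 2 days, 5 rose and 7 fell at 4 days, and 5 rose and 10 fell at 6 days. The counts were 36% and 36%, 20% and 28%, and 20% and 40% of the list. Over all tested genes the shares were 23.8% and 23.4%, 18.8% and 17.7%, and 22.0% and 21.7% in the same order. MAP2K6, a kinase that activates p38, had 6.64 ± 1.39 CPM in the controls and 1.18 ± 0.687, 0.838 ± 0.0556 and 0.702 ± 0.210 CPM at 2, 4 and 6 days (-3.25 ± 0.32 at 6 days, adjusted p = 7.12e-09). MAP2K3, another p38-activating kinase, had 77.7 ± 9.80 CPM in the controls and 137.6 ± 3.85, 97.7 ± 8.94 and 87.1 ± 3.79 CPM, a rise at 2 days (0.82 ± 0.090, adjusted p = 4.11e-08) and 4 days (0.33 ± 0.090, adjusted p = 0.00521) that did not pass the test at 6 days (0.17 ± 0.090, adjusted p = 0.143). MAP3K1, upstream of JNK, was at -0.93 ± 0.11 at 6 days (adjusted p = 2.22e-07). The SRF cofactors MRTFB (0.56 ± 0.11, adjusted p = 0.000156) and ELK3 (0.83 ± 0.076, adjusted p = 2.52e-09) rose at 6 days. SRF itself had 35.5 ± 2.86 CPM in the controls and 52.7 ± 1.37, 32.5 ± 0.885 and 32.2 ± 3.17 CPM at the 3 exposures.

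Of 16 genes that restrain MAP kinases, 7 rose and 4 fell at 2 days, 6 rose and 7 fell at 4 days, and 4 rose and 7 fell at 6 days. The counts were 43.75% and 25%, 37.5% and 43.75%, and 25% and 43.75% of the list. Over all tested genes the shares were 23.8% and 23.4%, 18.8% and 17.7%, and 22.0% and 21.7% in the same order. DUSP4, a nuclear phosphatase for ERK and JNK, rose from 31.2 ± 2.67 CPM to 87.6 ± 3.55, 87.9 ± 20.7 and 123.5 ± 3.87 CPM (1.98 ± 0.12 at 6 days, adjusted p = 3.09e-12). The cytoplasmic ERK phosphatase DUSP6 rose from 20.4 ± 2.22 to 46.5 ± 2.84 CPM at 6 days (1.18 ± 0.11, adjusted p = 6.35e-09). DUSP1, itself an immediate early gene that acts on p38 and JNK, had 171.5 ± 11.6 CPM in the controls and 173.4 ± 9.88 at 2 days. It then fell to 100.9 ± 14.1 and 94.1 ± 2.69 CPM (-0.87 ± 0.089 at 6 days, adjusted p = 1.83e-08). The JNK phosphatase DUSP16 fell too (-0.83 ± 0.15 at 6 days, adjusted p = 9e-05).

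Genes known as AP-1 targets in other cells were mostly higher after doxorubicin. Of 19 listed, 16 were tested. At 2 days 11 rose and 0 fell, at 4 and 6 days 14 rose and 1 fell, and the medians were 1.04, 1.18 and 1.32. At 2 days 0 were also lower at an unadjusted p under 0.05 in edgeR. The counts called were 68.75% and 0% of the tested list genes at 2 days and 87.5% and 6.25% at 4 and 6 days. Over all tested genes the shares were 23.8% and 23.4%, 18.8% and 17.7%, and 22.0% and 21.7% at 2, 4 and 6 days. Many of the listed genes are also targets of other factors, NF-kB among them. CXCL8, a neutrophil chemokine, had 15.7, 13.3 and 13.2 CPM in the controls and 790.4, 916.1 and 939.2 CPM at 6 days (5.97 ± 0.11, adjusted p = 3.67e-23). The cytokine gene IL6 had 28.7, 21.9 and 27.4 CPM in the controls and 270.4, 292.8 and 316.0 CPM at 6 days (3.49 ± 0.11, adjusted p = 3.65e-18). MMP1, a collagenase gene, had 1 count over the 3 controls and 8, 73 and 198 counts over the libraries of 2, 4 and 6 days. TGFB1 was 0.35 ± 0.12 higher at 6 days (adjusted p = 0.0218), and this was lost without control 1 (adjusted p = 0.0815), control 3 (adjusted p = 0.102) or 6-day library 3 (adjusted p = 0.104). HBEGF, an EGF receptor ligand and the exception at 6 days, had 59.9 ± 6.49 CPM in the controls, rose to 95.3 ± 6.77 at 2 days and fell to 32.6 ± 0.604 at 6 days (-0.88 ± 0.091, adjusted p = 2.19e-08). Its fall at 4 days (-0.24 ± 0.089, adjusted p = 0.0386) was lost without control 2 (adjusted p = 0.206), 4-day library 2 (adjusted p = 0.148) or 4-day library 3 (adjusted p = 0.0897). Among the AP-1 subunits at the same exposures, FOS, FOSB, JUN and JUND were lower at all 3 and JUNB at 4 and 6 days, while FOSL2 was higher at 2 days and FOSL1 at 4 days.

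**Figure D5:**
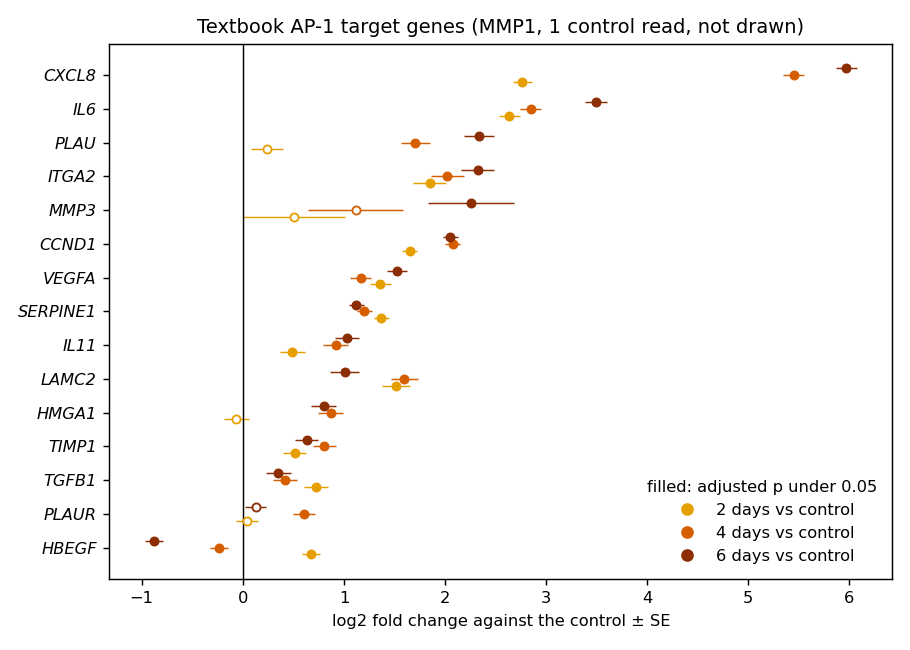
Log2 fold change ± SE (horizontal axis) against the control for 15 of the 16 tested AP-1 target genes, ordered by the value at 6 days; filled points passed an adjusted p of 0.05, and MMP1, with 1 control read, is not drawn. HBEGF is the only gene with filled points left of 0, and CXCL8 lies farthest right at 5.97.

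The genes whose pattern over the 12 libraries was most like that of FOS, out of 9339 genes averaging 10 CPM or more, were NSUN4 (Pearson r = 0.984), ACSS2 (r = 0.981) and PHGDH (r = 0.978). PHGDH had means of 271.1 CPM in the controls and 97.1, 86.4 and 97.0 CPM at the exposures. Those most like EGR1 were NCAPH (r = 0.977), ACSS2 (r = 0.975) and NSUN4 (r = 0.973), so 2 of the 3 were shared with FOS. For FOSL1 they were MOK (r = 0.962), PLAUR (r = 0.945) and FURIN (r = 0.942). PLAUR, the urokinase receptor gene and a listed AP-1 target, had 71.3 ± 10.4 CPM in the controls, 73.4 ± 5.24 at 2 days, 108.4 ± 14.2 at 4 days and 77.8 ± 8.40 at 6 days. Like FOSL1, it rose at 4 days (0.60 ± 0.11, adjusted p = 7.44e-05) and did not pass the test at 2 or 6 days (adjusted p = 0.770 and 0.355). PLAUR was picked here for its likeness to FOSL1 over these same libraries, so its test is no separate evidence of that likeness.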

How the data were processed

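Per the labels' protocols, total RNA of AC16 cells was made into libraries with the NEBNext Ultra RNA kit. The authors deposited whole-number counts for each gene, without normalization. The submitters' processing notes name fastp 0.23.2, Trimmomatic 0.38, STAR 2.7.8, HTSeq 0.13.5 and the build GRCh38.p13, with no roles or order. Tests used edgeR 4.0.16 (R 4.3.3): filterByExpr (count at least 10, total at least 15), TMM, robust glmQLFit and glmQLFTest. All 12 libraries entered a single fit with 4 group means, and p-values were adjusted by Benjamini-Hochberg over 17320 genes. The SE is the absolute log2 fold change divided by the square root of F. Levels per kilobase used merged exons of GENCODE release 29. The code was also run on simulated counts with known changes in a single comparison. That run checked the code and gives no error rate for the calls in these data.

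The members and lists were chosen with earlier results of these data known. All members are named, and in each list up to 4 genes, the 2 highest and 2 lowest log2 fold changes among genes called at 6 days with at least 5 CPM in the higher group. SRF, MAP2K3, MMP1, KLF10 and PLAUR were added after their values were seen. For the likeness to FOS, EGR1 and FOSL1, the 3 highest correlations of log2 CPM (prior count 2) are given. Alternatives were library totals alone, DESeq2-type size factors, DESeq2 1.42.0, no filter, at least 1 CPM in 3 libraries, a replicate block, the 2 groups alone and each library left out. After the data were seen, a fit without control 2 and 2-day library 3, whose mitochondrial shares stood apart, was added.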

Additional observations from a re-analysis of the deposited data

Results flagged for a closer look

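Several members differed from the control by unequal amounts at different exposures, by a direct test between the exposures with edgeR's quasi-likelihood test. From 2 to 4 days the log2 difference was -0.59 for FOS (adjusted p = 0.000441), 0.73 for FOSL1 (5.65e-06), -0.47 for FOSL2 (5e-05) and -0.70 for JUNB (0.0011). From 4 to 6 days it was 0.50 for FOS (adjusted p = 0.0122), -0.48 for FOSL1 (0.00511) and -0.36 for MAFF (0.012). At 6 against 2 days it was -0.42 for FOSL2 (adjusted p = 0.000142), -0.57 for JUNB (0.00426) and -0.37 for MAFF (0.00116). In each of these 10 the 3 libraries of the exposure with the higher level all lay above those of the other. The 10 were picked by the test on these same libraries, so this is no separate evidence. Groups of 3 were not tested for outlying libraries.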

How the results depend on the processing

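Of 420 recomputed log2 fold changes of members that passed the test, 410 kept their direction and call, 10 missed the threshold and 0 reversed. The calls lost were JUN and JUND at 2 days, FOS and MAFF at 6 against 4 days, and MAFF at 6 against 2 days under library totals alone (adjusted p = 0.0519). The calls of FOS, FOSB and EGR1 against the control held in every alternative run. Reversals concerned members that did not pass the test, and the cause was not tested. Without control 2 and 2-day library 3, FOSL1 was 0.17 and MAFF 0.0084 at 2 days. With library totals alone, 4 against 2 days was 0.012 for FOSB, 0.032 for JUN and 0.075 for MAFF, 6 against 4 days was 0.044 for JUN and 0.0063 for JUND, and 6 against 2 days was 0.068 for FOS, 0.077 for JUN and 0.017 for EGR1. Leaving out each library in turn gave ranges of -0.15 to 0.095 for FOSL1 at 2 days. For 4 against 2 days they were -0.42 to 0.079 for FOSB, -0.16 to 0.15 for EGR1 and -0.056 to 0.025 for MAFF. For 6 against 4 days they were -0.082 to 0.081 for JUN, -0.033 to 0.34 for JUNB, -0.19 to 0.087 for JUND and -0.29 to 0.023 for EGR1.

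The count of members called at 6 against 4 days was 3, and 1 to 3 with each library left out (1 without 6-day library 2). At 6 against 2 days it was 3, and 5 with no filter, with at least 1 CPM in 3 libraries and with the 2 groups alone. FOSL1 and JUND passed the test there in the first pair of these settings, FOSL1 and FOSB with the 2 groups alone. Of all genes, 1174 were called at 6 against 4 days, 1837 with the 2 groups alone, 2027 without control 2 and 2-day library 3, and 572 to 871 with each library left out.

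Library totals alone shifted the median log2 fold change of all genes to -0.136 at 2 days and 0.162 at 6 against 2 days. The split of higher to lower calls went from 4122 to 4058 to 3203 to 5386 at 2 days, from 2828 to 3203 to 3842 to 2443 at 4 against 2 days, from 528 to 646 to 1006 to 350 at 6 against 4 days, and from 3437 to 3977 to 5265 to 2538 at 6 against 2 days. Members were then 1 higher and 7 lower at 2 days and 1 higher and 7 lower at 6 days against the control, and 1 higher and 2 lower at 6 against 2 days. With the replicate number as a block, 6, 7 and 7 members were called at 2, 4 and 6 days against the control, as without it, and 4, 3 and 3 between exposures. Same-numbered libraries did not deviate together (correlations of -0.171 to 0.0963 over 18 pairs), so the numbers were not taken as pairs. Of 868 values for the list genes named, 836 kept their call and 32 missed the threshold. IER3 was the only member with too few counts to test.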

Other observations

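Genes that bind the AU-rich elements of short-lived mRNAs such as FOS moved unevenly. Of 6 listed, all tested, 1 rose and 3 fell at 2 and at 4 days, and 0 rose and 3 fell at 6 days, when 1 was higher at an unadjusted p under 0.05 in edgeR. The counts called were 16.7% and 50% of the list at 2 and at 4 days, and 0% and 50% at 6 days. Over all tested genes the shares were 23.8% and 23.4%, 18.8% and 17.7%, and 22.0% and 21.7% at 2, 4 and 6 days. ZFP36, which triggers decay of such mRNAs and is itself an immediate early gene, had 16.5 ± 2.41 CPM (SD, n = 3) in the controls and 9.53 ± 1.55, 8.12 ± 0.782 and 7.43 ± 1.02 CPM at 2, 4 and 6 days (log2 fold change at 6 days -1.14 ± 0.15, adjusted p = 8.73e-07, edgeR's quasi-likelihood test). HNRNPD, which encodes the decay factor AUF1, fell from 397.6 ± 32.0 to 252.6 ± 18.7 CPM at 6 days (-0.65 ± 0.084, adjusted p = 6.38e-07). KHSRP, another decay factor, was at -0.34 ± 0.078 at 6 days (adjusted p = 0.00116), and its fall at 4 days (-0.20, adjusted p = 0.0477) was lost without control 2 (adjusted p = 0.189) or any of the 4-day libraries (adjusted p = 0.146, 0.109 and 0.0612 without libraries 1, 2 and 3). ZFP36L2, a relative of ZFP36 added after its values were seen, rose from 35.6 ± 2.68 to 114.3 ± 9.05 CPM at 2 days (1.68 ± 0.086, adjusted p = 4.86e-14).

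Libraries of a group did not rank evenly for the members. The 4-day library 3 was the highest of its group for 8 of the 9 tested members, as control library 2 was of its own. The mitochondrial share was 6.43% in the 4-day library 3 against 6.34% and 6.44% in the others of its group.

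The summed level of 5 endothelial markers was 19.95 to 27.2 CPM over all libraries. TEK alone averaged 17.3 CPM in the controls, so this sum mainly follows TEK. At 4 days PECAM1 and TEK were higher than in the control, and VWF and KDR were lower. The summed level of 6 macrophage and blood markers was 4.82 to 7.36 CPM in the controls, 5.85 to 7.19 at 2 days, 10.0 to 13.2 at 4 days and 11.3 to 13.04 at 6 days. These markers did not move together, and 3 of them were tested. At 4 and at 6 days CD68 was higher than in the control, CD14 was lower and PTPRC did not pass the test. In the controls and at 4 and 6 days, CD68 averaged 2.51, 7.50 and 7.72 CPM and CD14 1.43, 0.476 and 0.275 CPM. Of 6 heat shock genes listed as responding to handling, 4 were tested. The summed level of the list was 1204 to 1408 CPM in the controls, 938.2 to 1148 at 2 days, 1087 to 1269 at 4 days and 1221 to 1296 at 6 days. HSPA8 alone averaged 945.6 CPM in the controls, so the sum mainly follows HSPA8. HSPA1A and HSPA1B, which were not tested, had at most 2 counts in any group. As the handling of reads that map to more than 1 place is not given, these counts do not show that either gene was barely expressed.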
